A study of Mus musculus with 8 samples.

Results

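The replication-dependent histone genes are the multicopy genes for the H1, H2A, H2B, H3 and H4 proteins that package newly copied DNA, and 50 of them were among the 11364 genes of the deposited expression tables. They were picked by symbol (Hist1h, Hist2h, Hist3h or Hist4h). The family was selected on measured values: its members stood among the most strongly lower genes in the K1-ER comparison, so their values there are a description and were not tested. The 50 genes comprised 5 H1, 12 H2A, 16 H2B, 9 H3 and 8 H4 genes.

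All values came from K1, an erythroid line derived from mouse fetal liver that lacks Klf1, and from its derivatives. Wild type KLF1 joined to a tamoxifen-responsive part of the estrogen receptor was added to give K1-ER, and the same fusion with the E339K change in the second zinc finger (CDA-KLF1 in the labels) to give K1-E339K-ER. Both fusions were delivered by retrovirus, and 4-OHT moves them into the nucleus. Newly made RNA was marked with 4-thiouridine (4sU), pulled down and sequenced, with 3 K1 libraries and 3 K1-E339K-ER libraries from 3 clones (1B, 2A and 2B). The labels give 200 nM 4-OHT, and 500 µM 4sU for 30 min (the methods text gives another dose and a longer pulse), for every library except that 1 K1 library is labelled ethanol. The K1-ER libraries were made in earlier work and were not analysed here, so cell line and library series cannot be told apart in that comparison. Binding was measured in clone 2A after 3 h of 4-OHT, with 1 ChIP library made from 3 pooled replicates and 1 input library.

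Replication-dependent histone genes are switched on as cells enter S phase and lie in clusters, often as divergent H2A and H2B pairs. Their mRNAs are the main metazoan mRNAs without a poly(A) tail. Instead they end shortly after a stem-loop that is bound by SLBP, and cleavage is guided by the U7 small nuclear RNA. In erythroid cells, terminal differentiation couples a few last divisions to exit from the cell cycle and condensation of the nucleus.

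The stem-loop is shown because it is the element that sets these genes apart, and because it split the family by type. A stem of 6 pairs around a loop of 4 bases was searched in the 150 bases after the stop codon in the mm9 sequence, and was found in 43 of the 48 members with an annotated coding sequence, starting 22 to 56 bases after the stop codon. All 43 had every stem base paired. The 5 without a match were Hist1h2an, Hist1h2bp, Hist1h2bq, Hist1h2br and Hist2h2be. The stop codon was that of the longest annotated coding sequence. For Hist1h2bp (414 bases), Hist1h2bq and Hist1h2br (405 bases each) this was longer than the 378 bases of the other annotated H2B genes. A stem-loop after another stop codon of these 3 genes was not searched for. Capitals mark the 16 bases of the stem-loop, with 5 bases on either side in lower case.
Hist1h4a (H4): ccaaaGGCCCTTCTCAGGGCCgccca
Hist1h4j (H4): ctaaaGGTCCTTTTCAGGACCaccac
Hist1h4f (H4): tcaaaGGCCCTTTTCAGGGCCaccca
Hist1h1e (H1): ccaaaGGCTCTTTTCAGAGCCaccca
Hist2h2ab (H2A): aaaaaGGCTCTTTTAAGAGCCaccaa
Hist1h2bl (H2B): tcaaaGGCTCTTTTAAGAGCCaccca
Hist1h3d (H3): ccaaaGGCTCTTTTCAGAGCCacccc

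One core, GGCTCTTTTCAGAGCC, was shared by 28 members. All 8 H4 members carried a C at stem base 4, and none of the 35 others with a stem-loop did, which all carried a T there.

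Upstream sequences are shown for the H4 members with the 2 lowest and the highest log2 fold change in the K1-ER comparison, and for a divergent pair whose genes differed. They come from RefSeq (GRCm38.p6), which held an entry for 46 of the 50 members. Capitals in the first 3 mark matches, on either strand, to the KLF motifs spelled out further on, and in the last one to CCAAT.
Hist1h4a, chr13:23761250-23761499, minus strand: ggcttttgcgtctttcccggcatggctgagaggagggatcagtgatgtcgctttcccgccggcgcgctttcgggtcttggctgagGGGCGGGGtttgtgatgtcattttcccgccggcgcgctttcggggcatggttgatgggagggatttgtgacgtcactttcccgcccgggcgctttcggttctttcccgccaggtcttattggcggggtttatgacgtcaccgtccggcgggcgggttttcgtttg
Hist1h4j, chr13:21734784-21735033, plus strand: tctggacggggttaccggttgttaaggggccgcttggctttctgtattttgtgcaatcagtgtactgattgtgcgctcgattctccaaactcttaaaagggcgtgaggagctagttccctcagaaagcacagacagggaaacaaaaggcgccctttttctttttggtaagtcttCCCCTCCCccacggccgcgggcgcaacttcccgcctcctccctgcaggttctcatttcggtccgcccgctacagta
Hist4h4, chr6:136804432-136804681, minus strand: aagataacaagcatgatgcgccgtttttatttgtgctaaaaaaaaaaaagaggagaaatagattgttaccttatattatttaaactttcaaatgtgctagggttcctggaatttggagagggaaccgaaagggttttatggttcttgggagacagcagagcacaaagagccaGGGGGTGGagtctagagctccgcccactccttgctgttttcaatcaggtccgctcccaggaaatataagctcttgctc
Between the starts of Hist1h2bl and Hist1h2ai, chr13:21716184-21716411, plus strand: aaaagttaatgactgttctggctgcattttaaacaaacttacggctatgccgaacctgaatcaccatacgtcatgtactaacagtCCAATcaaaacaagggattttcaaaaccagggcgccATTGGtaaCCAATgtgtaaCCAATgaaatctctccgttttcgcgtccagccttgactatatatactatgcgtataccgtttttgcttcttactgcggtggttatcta

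In the authors' deposited table for K1-ER against K1, 49 of the 50 members had a negative log2 fold change, with a median of -2.19 and a range from -4.48 to 0.33. The median over all 11364 genes was -0.05, and 5918 of them were negative. Errors are standard errors on the log2 scale, solved from the deposited test values, since the tables hold no value per library. In total 41 members lay below -1, 29 below -2 and 8 below -3. The authors' test (limma's treat, which in these tables asks whether a log2 fold change is larger than 1 in size) called 19 members lower at an adjusted p under 0.05, beside 1.06% of all genes, and 0 higher, beside 4.96%. Since this comparison is the one that brought the family forward, nothing is read from the shares. Members were 19 of the 120 genes called lower, and 4 of the 5 of these with the smallest p. The members nearest to the threshold were Hist1h3d (-2.38, SE 0.40, adjusted p 0.0306) and Hist1h2ag (-2.35, SE 0.39, adjusted p 0.0338) on the inside. On the outside stood Hist1h3h (-2.08, SE 0.34, adjusted p 0.0508) and Hist1h2af (-2.37, SE 0.44, adjusted p 0.0543).

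**Figure D1:**
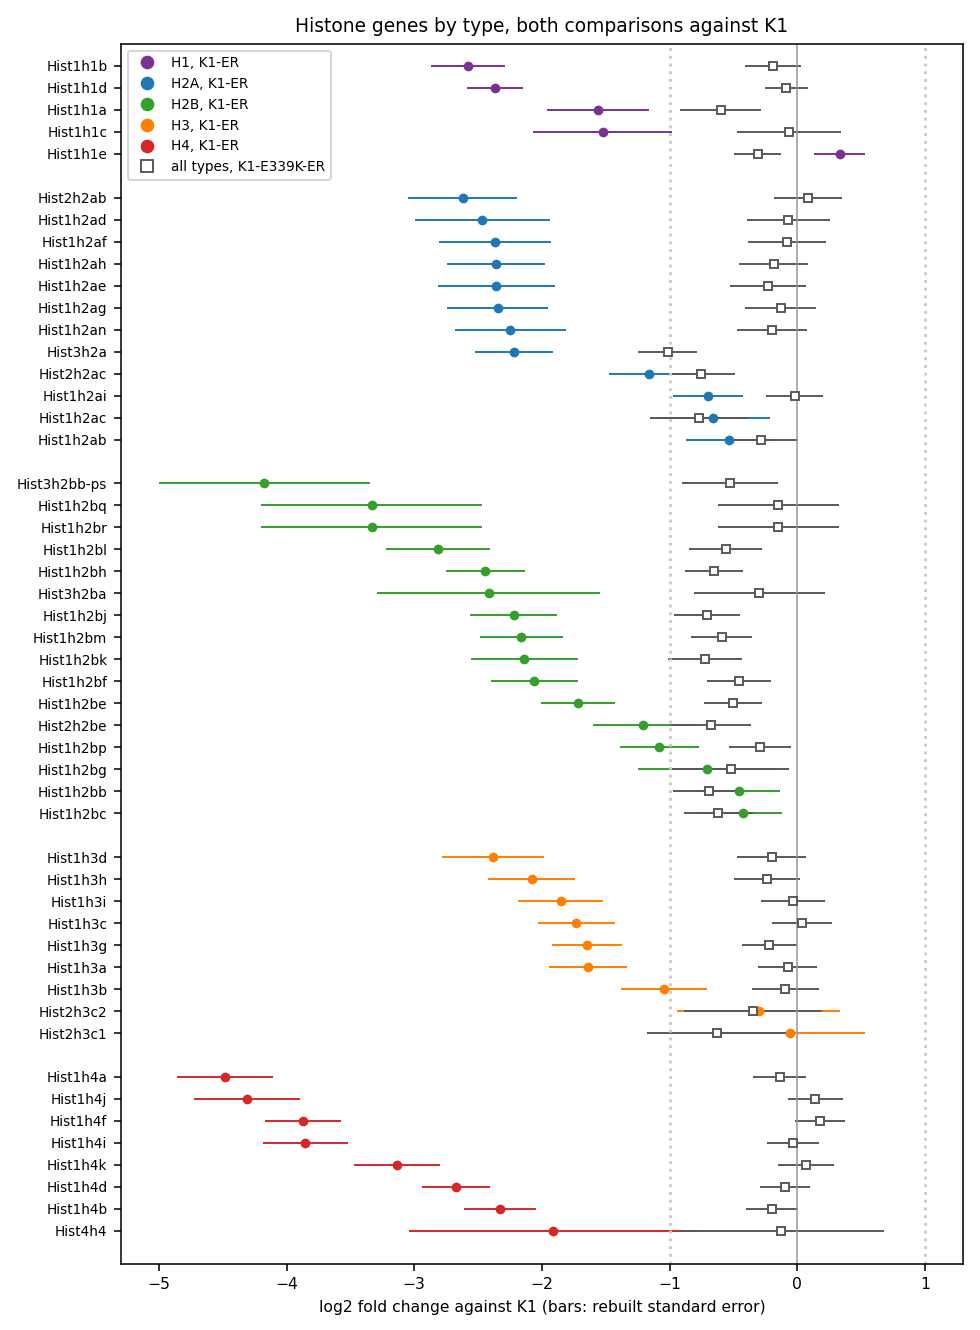
Log2 fold change against K1 (x axis) of each of the 50 histone genes (rows, grouped by type) for K1-ER (filled circles) and K1-E339K-ER (open squares), with rebuilt standard errors as bars and dotted lines at -1 and 1. The 8 H4 genes have the lowest K1-ER median of the types (-3.49), and 49 of 50 open squares lie between -1 and 1.

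H4, the core protein that pairs with H3, had the lowest median of the 5 types. Its 8 members had a median log2 fold change of -3.49 in K1-ER against K1, and 7 of them were called lower. Hist1h4a had the lowest value of the family, -4.48 (SE 0.38), which is 22.4-fold lower, and its value in K1-E339K-ER against K1 was -0.14 (SE 0.21). Hist1h4j (-4.31), Hist1h4f (-3.87), Hist1h4i (-3.85) and Hist1h4k (-3.13) followed, and Hist1h4d (-2.67) and Hist1h4b (-2.33) were less low. Hist4h4, which lies alone on chromosome 6, had the highest H4 value in K1-ER, -1.91 (SE 1.13), and -0.12 (SE 0.80) in K1-E339K-ER. It also had the lowest mean level of the family (-0.95 log2 CPM) and its interval in K1-ER, from -4.32 upward, was the widest of the type. All 8 H4 genes encode the same protein of 103 residues, while their coding sequences were 85.8% to 98.4% identical.

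H2A and H2B form the dimers on the outside of the nucleosome. The 12 H2A members had a median of -2.30 in K1-ER, with 4 called lower. Of these, 8 lay between -2.62 and -2.22: Hist2h2ab, Hist1h2ad, Hist1h2af, Hist1h2ah, Hist1h2ae, Hist1h2ag, Hist1h2an and Hist3h2a. The other 4 were higher, namely Hist2h2ac (-1.16), Hist1h2ai (-0.70), Hist1h2ac (-0.66) and Hist1h2ab (-0.54). The lowest H2A gene, Hist2h2ab, had -2.62 (SE 0.43) in K1-ER and 0.08 (SE 0.26) in K1-E339K-ER. The highest, Hist1h2ab, had -0.54 (SE 0.34) and -0.28 (SE 0.28).

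The 16 H2B members had a median of -2.15 in K1-ER, with 5 called lower, and had the widest range of the types. Hist3h2bb-ps, which is marked as a pseudogene, was lowest with -4.17 (SE 0.82), and had -0.53 (SE 0.37) in K1-E339K-ER. Hist1h2bc was highest with -0.43 (SE 0.31), and had -0.62 (SE 0.27) in K1-E339K-ER. Between them, Hist1h2bl (-2.82), Hist1h2bh (-2.44), Hist3h2ba (-2.42), Hist1h2bj (-2.22), Hist1h2bm (-2.16), Hist1h2bk (-2.14) and Hist1h2bf (-2.06) lay below -2. Hist1h2be (-1.72), Hist2h2be (-1.21), Hist1h2bp (-1.08), Hist1h2bg (-0.70) and Hist1h2bb (-0.45) lay above it. Hist1h2bq and Hist1h2br carried identical values in every column (-3.33, mean 0.18 log2 CPM), so they count as 1 measurement.

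H3, whose tail carries many of the marks that set gene activity, had a median of -1.64 over 9 members. Hist1h3d, the only H3 member called lower, had -2.38 (SE 0.40) in K1-ER and -0.20 (SE 0.27) in K1-E339K-ER. Hist1h3h (-2.08), Hist1h3i (-1.85), Hist1h3c (-1.73), Hist1h3g (-1.64), Hist1h3a (-1.64) and Hist1h3b (-1.04) followed in order, with neighbours closer than their standard errors up to Hist1h3a. The chromosome 3 genes Hist2h3c2 (a pseudogene in GENCODE M1, -0.30, SE 0.64) and Hist2h3c1 (-0.06, SE 0.59) were highest. Hist2h3c1 had -0.63 (SE 0.55) in K1-E339K-ER.

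H1, the linker histone outside the core particle, held both directions. Hist1h1b was lowest with -2.58 (SE 0.29) in K1-ER, and had -0.19 (SE 0.22) in K1-E339K-ER. Hist1h1d (-2.37) was also called lower, and Hist1h1a (-1.56) and Hist1h1c (-1.52) were not. Hist1h1e was the 1 member of the family with a positive value in K1-ER, 0.33 (SE 0.20), with a 95% interval from -0.10 to 0.76, and it had -0.31 (SE 0.18) in K1-E339K-ER. Hist1h1b and Hist1h1e, at opposite ends of their type, had a mean log2 CPM of 8.08 and 9.46.

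Against this, the members lay close to 0 in the authors' deposited table for K1-E339K-ER against K1. The median was -0.21, the range ran from -1.01 to 0.18, and 45 of 50 were negative. Over all 11364 genes the median was -0.03, and 6039 were negative. Of the 50 members, 0 were called in either direction by limma's treat with Benjamini-Hochberg adjustment over all genes, beside 2.31% of all genes, and 0 had an unadjusted p under 0.05, beside 4.91%. The smallest unadjusted p, 0.478, was that of Hist3h2a (-1.01, SE 0.23). With no minimum in the rebuilt test, Hist3h2a was the 1 member called lower (adjusted p 0.00910), beside 1.42% of all genes. For 30 members the 95% interval of the log2 fold change lay between -1 and 1. The other 20 intervals reached past -1 or 1.

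Within these small values, 10 members had a 95% interval wholly below 0, beside 6.94% of all genes. Members were chosen for low values against the same K1 libraries. Neither this count nor the number of negative values is therefore independent of that choice, and nothing is read from the share. Of the 10, 8 were H2B genes, and the others were Hist3h2a and Hist2h2ac. All 16 H2B members were negative in K1-E339K-ER, with a median of -0.54 and a range from -0.72 (Hist1h2bk) to -0.15. The medians of H1 (-0.19), H2A (-0.19), H3 (-0.20) and H4 (-0.06) were closer to 0. The H4 genes, with the lowest median in K1-ER, thus had the median nearest to 0 in K1-E339K-ER. Differences between types were not tested.

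Both comparisons use the same K1 libraries, so the values stand side by side without a test of their likeness. The difference, K1-E339K-ER minus K1-ER, had a median of 1.79 over the members and was positive for 44 of 50, beside a median of 0.01 over all genes, of which 5762 of 11364 were positive. Since the members were chosen for low K1-ER values, which are subtracted here, the sign largely follows from the choice. It was largest for Hist1h4j (4.45) and Hist1h4a (4.35). It was negative for 6 members, from -0.64 (Hist1h1e) to -0.04 (Hist2h3c2), the others being Hist2h3c1, Hist1h2bb, Hist1h2bc and Hist1h2ac.

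**Figure D2:**
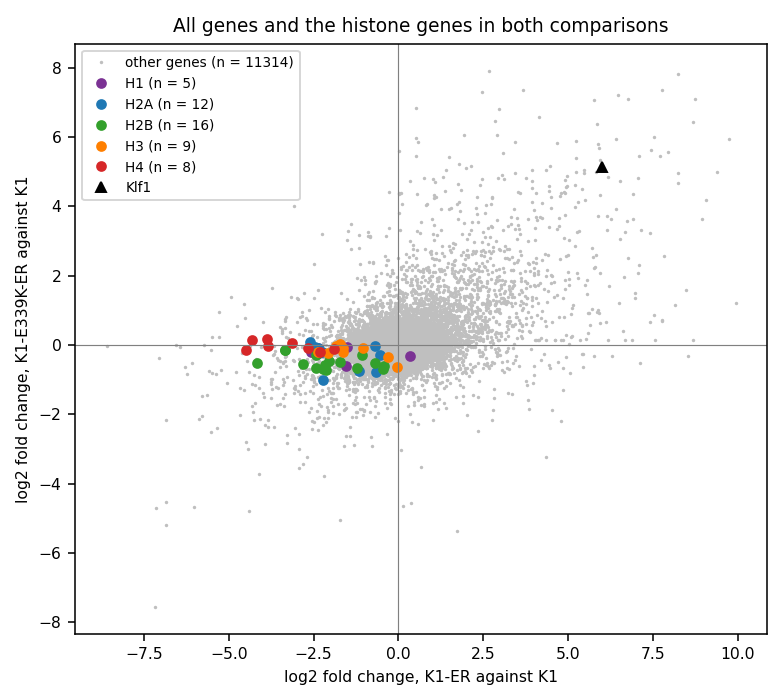
Log2 fold change in K1-ER against K1 (x axis) and in K1-E339K-ER against K1 (y axis) for 11314 other genes (grey) and the histone genes (colours by type). The histone genes spread from -4.48 to 0.33 along x and from -1.01 to 0.18 along y, and both axes share the K1 libraries.

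By position in mm9, 41 members lay on chromosome 13 in the Hist1 cluster, which is split into a block of 17 genes (chr13:21807632-22135545) and a block of 24 genes (chr13:23625775-23856283), 1.49 Mb apart. Their median log2 fold changes in K1-ER were -2.35 and -1.72, and -0.19 and -0.21 in K1-E339K-ER. The 5 Hist2 members on chromosome 3 (chr3:96023839-96052431) had medians of -1.16 and -0.63, and the 3 Hist3 members on chromosome 11 (chr11:58762413-58770176) had -2.42 and -0.53. Along the cluster, members with low values stood beside members with values near 0 in K1-ER. Hist1h4a, the lowest gene, lay 622 bases from Hist1h3a (-1.64).

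In 9 places an H2A and an H2B gene stood back to back with at most 268 bases between their annotated starts. In 5 of the pairs the K1-ER values of both genes differed by under 0.5: Hist1h2ah and Hist1h2bk (-2.36 and -2.14), Hist1h2ag and Hist1h2bj (-2.35 and -2.22), Hist1h2bf and Hist1h2ad (-2.06 and -2.47), Hist1h2ac and Hist1h2bc (-0.66 and -0.43), and Hist2h2ac and Hist2h2be (-1.16 and -1.21). In the other 4 they lay further apart. Hist1h2bl stood at -2.82 (SE 0.41) and Hist1h2ai, across the 4 CCAAT boxes printed above, at -0.70 (SE 0.27). Hist1h2ae stood at -2.36 (SE 0.46) and Hist1h2bg at -0.70 (SE 0.54). The remaining pairs were Hist3h2bb-ps with Hist3h2a (-4.17 and -2.22) and Hist1h2an with Hist1h2bp (-2.25 and -1.08). In K1-E339K-ER the 2 genes of a pair differed by at most 0.58.

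**Figure D3:**
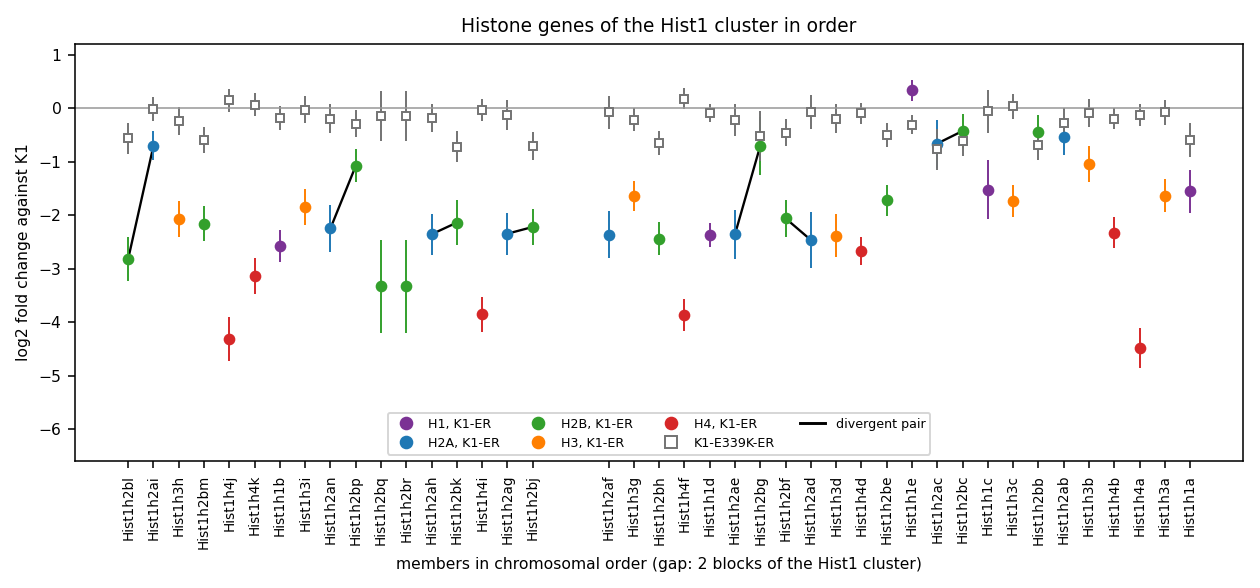
Log2 fold change against K1 (y axis, bars are rebuilt standard errors) of the 41 chromosome 13 members in genomic order (x axis) for K1-ER (filled circles, coloured by type) and K1-E339K-ER (open squares), with black lines joining divergent pairs. The K1-ER values range from -4.48 to 0.33 with high and low values side by side, and the pair Hist1h2bl and Hist1h2ai spans from -2.82 to -0.70.

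The sequences of the members also bear on how well each gene can be told from its copies. Of all 50-base windows in a member's annotated coding sequence (exon sequence for the 2 without one), a median of 72.8% occurred elsewhere in the mm9 genome, and 38 members shared at least 50% of their windows. For Hist1h2ad, Hist1h2ag and Hist2h3c1 every window was shared, while Hist1h1a, Hist1h1b, Hist2h2be and Hist4h4 shared none. The authors removed reads of low mapping quality, and how reads from copies were assigned is not given in the sources used here, so values of single members with shared sequence are uncertain. The 12 members under that share had a median of -2.29 in K1-ER and -0.24 in K1-E339K-ER, beside -2.15 and -0.21 for the 38.

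Listed gene length moved with the values. The 36 members of up to 1000 bp had a median of -2.34 in K1-ER, and the 14 longer ones -1.37. Among the longer ones were Hist1h1e (1931 bp, 0.33), Hist1h2bc (8282 bp, -0.43) and Hist1h2ac (2493 bp, -0.66). However, 4 of the 14 lay below -2. These were Hist1h1d (2977 bp, -2.37), Hist3h2a (1990 bp, -2.22), and Hist1h2bq and Hist1h2br (7576 bp, -3.33 each). In K1-E339K-ER the medians were -0.20 and -0.33.

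Other short genes were set beside them as a list. The 211 other genes of up to 1000 bp had a median of -0.15 in K1-ER, with 2 called lower and 9 higher, and 0.05 in K1-E339K-ER, with 0 called (2 had an unadjusted p under 0.05). The 2 called lower were Rpph1, the RNA of ribonuclease P (325 bp, -2.51, SE 0.21), and Vaultrc5, a vault RNA (345 bp, -4.53, SE 0.78). Their values in K1-E339K-ER were 0.04 and -0.16. Among genes chosen after their values were seen, Rmrp (-1.69, adjusted p 0.101 by treat) and Terc (-1.38), RNA components of RNase MRP and telomerase, also had negative values in K1-ER. The 11 other genes of over 200 and up to 500 bp had a median of -1.69, with 10 negative. The 102 of up to 100 bp had 0.31, the 38 of over 100 and up to 200 bp had -0.94 and the 60 of over 500 bp had -0.14. The splits by length and by class were not planned. By class, 24 of 28 H/ACA snoRNA genes were negative (median -0.89), and 23 of 49 C/D snoRNA genes (median 0.10). Of both classes 0 were called in K1-ER, and 2 H/ACA and 3 C/D genes had an unadjusted treat p under 0.05. In K1-E339K-ER these 2 classes had medians of 0.03 and 0.09. Like the histone mRNAs, these structural RNAs and snoRNAs are made without a poly(A) tail. Malat1, a long RNA that also lacks a usual poly(A) tail, had 0.84 (SE 0.22) in K1-ER and -0.03 (SE 0.20) in K1-E339K-ER. Neat1, another long RNA (listed length 3177 bp), had 0.69 (SE 0.20) and -1.16 (SE 0.19). Both were likewise chosen after their values were seen, and neither was called in either comparison. The part of RNA size, RNA class or library series in the K1-ER values was not tested.

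**Figure D4:**
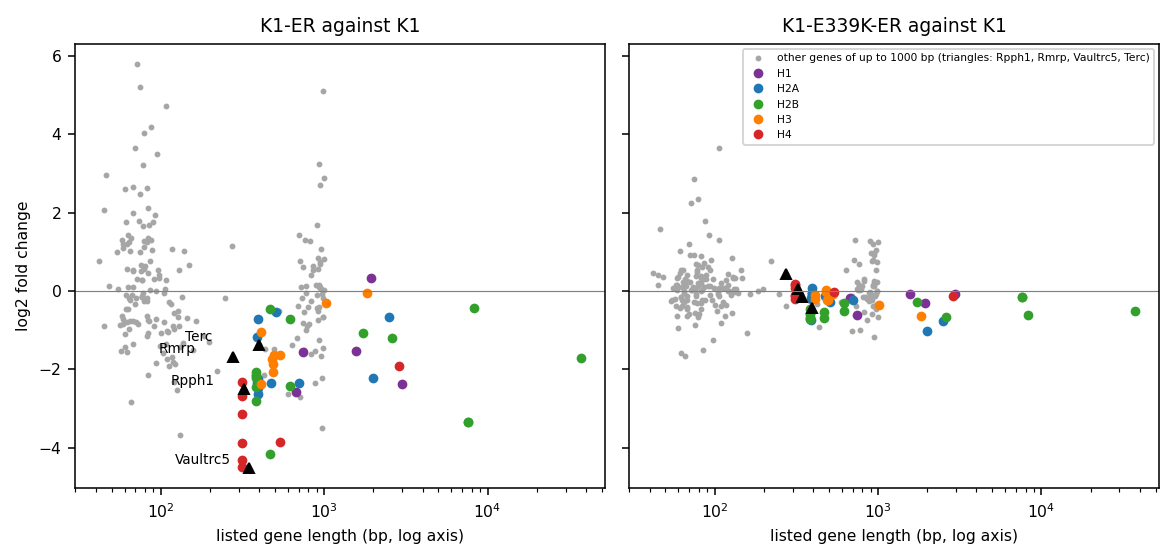
Log2 fold change (y axis) against listed gene length (x axis, log scale) for the histone genes (colours by type), 211 other genes of up to 1000 bp (grey) and 4 structural RNAs (triangles), in K1-ER (left) and K1-E339K-ER (right). In K1-ER, Rpph1 (-2.51) lies in the range of the short histone genes and Vaultrc5 (-4.53) just below the lowest of them (-4.48), and in K1-E339K-ER they have 0.04 and -0.16.

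Genes whose products make or handle histone mRNA were measured for 28 of 29 listed, the U7 RNA gene Rnu7 being absent. Of these, 0 were called in either comparison and 0 had an unadjusted treat p under 0.05 in either, with medians of -0.06 in K1-ER and -0.17 in K1-E339K-ER. Slbp, the stem-loop binder, had 0.13 (SE 0.25) and -0.14 (SE 0.22). Npat, the coactivator of histone transcription at the start of S phase, had -0.50 (SE 0.21) and 0.15 (SE 0.17). Hinfp, which binds H4 promoters, had 0.51 (SE 0.23) and -0.13 (SE 0.20). The lowest in K1-ER was Cpsf3, the endonuclease that cuts histone pre-mRNA, with -1.46 (SE 0.29), and it had 0.68 (SE 0.22) in K1-E339K-ER.

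Replacement histones are mostly not limited to S phase, and most come from polyadenylated mRNA. They were measured for 10 of 11 listed genes, with medians of -0.04 and -0.14. H2afy, which encodes macroH2A, was the 1 called higher in K1-ER (2.85, SE 0.44), and had -0.13 (SE 0.48) in K1-E339K-ER. The other macroH2A gene, H2afy2, had the opposite sign in K1-ER, -3.58 (SE 0.96, adjusted p 0.114 by treat), and -0.37 (SE 0.52) in K1-E339K-ER. In K1-ER 2 of the 10 had an unadjusted p under 0.05. None of the 10 was called in K1-E339K-ER by limma's treat, and 1 had an unadjusted p under 0.05. All 20 histone chaperone genes were measured, with medians of 0.04 and -0.12, and 0 were called or had an unadjusted p under 0.05. All 34 S phase and replication genes were measured, with medians of 0.26 and 0.09. E2f2 was the 1 called, higher in K1-ER (2.98, SE 0.22), and it had 1.27 (SE 0.21) in K1-E339K-ER, where 0 were called and 1 had an unadjusted p under 0.05. Pcna, the clamp of the replication fork, had 0.16 (SE 0.28) and 0.26 (SE 0.24).

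**Figure D5:**
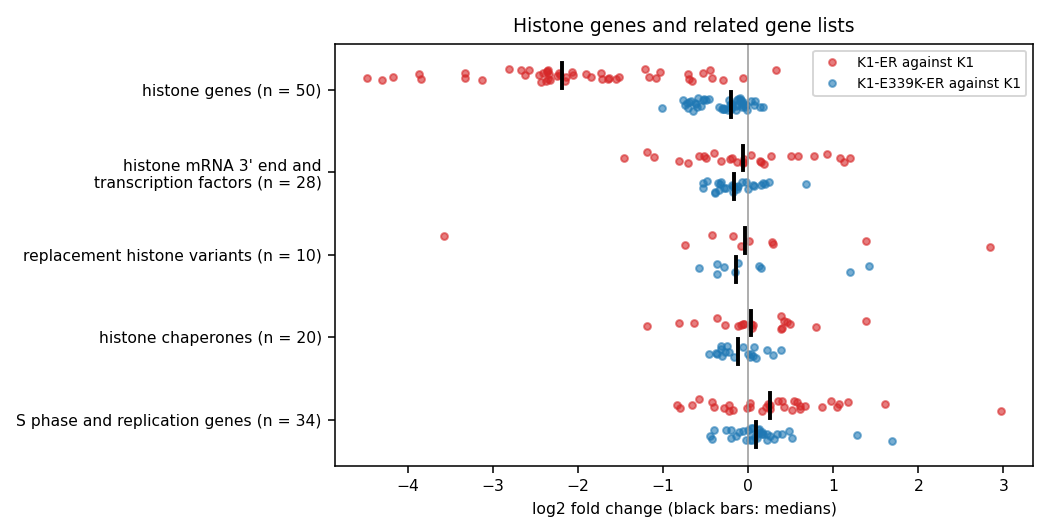
Log2 fold change (x axis) of each gene in the histone family and 4 related lists (rows) in K1-ER (red) and K1-E339K-ER (blue) against K1, with medians as black bars. The histone genes have a K1-ER median of -2.19, and the 4 lists have medians from -0.06 to 0.26.

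No member had a consensus KLF1 binding site within 10 kb of its TSS, while 26.7% of the 10546 genes with a position did. Members lie close together and share their nearest sites, so they are not independent of each other in this count. The paper states that duplicate and multi-mapped ChIP reads were left out, so a site in sequence shared between copies could go unseen. The consensus sites are 5551 regions that the authors compared between KLF1-ER and KLF1-E339K-ER with DiffBind, with concentrations in log2 units. The nearest lay 13823 bp upstream of Hist1h1c, at chr13:23816697-23817009 (mm9), where the concentration was 0.91 for wild type KLF1-ER and 5.59 for KLF1-E339K-ER. With 1 KLF1-E339K-ER ChIP library, the spread between mutant replicates at a site was not measured. The 101 bases around its midpoint, chr13:23816803-23816903, are shown with matches to the purine form of the KLF motif in capitals, all of them in a run of G.
Site upstream of Hist1h1c: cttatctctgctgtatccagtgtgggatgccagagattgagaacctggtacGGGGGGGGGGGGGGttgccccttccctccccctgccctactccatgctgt

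Hist1h1c itself had -1.52 (SE 0.55) in K1-ER and -0.06 (SE 0.41) in K1-E339K-ER. The other site inside a block, chr13:22067308-22067617, was nearest to Pom121l2 and had the opposite order, 4.64 for wild type and -0.38 for the mutant. Within 50 kb, 17 of the 50 members had a site, and 48.7% of all genes did. Hist1h4a lay 36.2 kb and Hist1h4j 229 kb from the nearest site.

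In the 250 bases upstream of the RefSeq start, the pyrimidine form of the KLF motif (GGGCGGGG, GGGCGTGG, GGGTGGGG or GGGTGTGG) was found on either strand in 6 of 46 members (13.0%), and in 27.4% of all 32851 promoters in the table. The purine form (GGGAGGGG, GGGAGTGG, GGGGGGGG or GGGGGTGG) was found in 6 members, and in 20.6% of all. Of the 8 H4 members, 3 had the pyrimidine form (Hist1h4a, Hist1h4b and Hist1h4i) and 4 the purine form (Hist1h4i, Hist1h4j, Hist1h4k and Hist4h4). CCAAT was found in 38 of 46 members and in 33.8% of all promoters. It was in every H1, H2A and H2B member matched, in 6 of 8 H3 members and in 2 of 8 H4 members. TATAAA was found in 24 members (12.4% of all promoters). The octamer ATTTGCAT was found in 11, all of them H2A or H2B (1.6% of all promoters). AAACACA was found in 6, namely 4 of 5 H1 members, 1 H2A and 1 H2B member (6.2% of all promoters). The E2F motif (TTTGGCGC or TTTCGCGC) was found in 7, all H2A or H2B (0.7% of all promoters). These are letter matches, not measured sites. Divergent pairs share upstream bases, so the same match can be counted for both genes. For the E2F motif this held for Hist1h2ag with Hist1h2bj and for Hist1h2an with Hist1h2bp. For the octamer it held for Hist1h2ah with Hist1h2bk and for Hist1h2ae with Hist1h2bg. The counts are thus of members, not of separate sites.

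As a check of the lines, Klf1 itself, which the fusions supply, was 6.01 (SE 0.64) higher in K1-ER and 5.12 (SE 0.62) higher in K1-E339K-ER on the log2 scale. Of 22 erythroid markers 21 were measured. In K1-ER 9 were called higher, including Hbb-bh1 (8.69), Nfe2 (5.46), Alas2 (3.61), Ermap (2.63) and Klf1. In K1-E339K-ER 4 were called, namely Hbb-bh1 (6.42), Nfe2 (5.05), Lmo2 (2.39) and Klf1. Of other cell types, 3 of 9 megakaryocyte, 3 of 9 myeloid, 1 of 7 lymphoid, 3 of 6 fibroblast or stroma and 0 of 5 hepatocyte markers were in the tables. Col1a1 was called higher in K1-E339K-ER (5.45, SE 0.80) at a mean level of -1.70 log2 CPM. The other 2 of that list were not called and had higher mean levels (Pdgfrb 1.52 and Col3a1 4.53 log2 CPM). Their log2 fold changes were -0.39 and 0.44 in K1-E339K-ER, and -1.41 and -1.07 in K1-ER.

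The tables give no counts, so the depth of each library is unknown. Fewer cells in S phase and less histone RNA per such cell cannot be told apart in bulk RNA. In K1-ER neither can be told apart from the library series.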

How the data were processed

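Reads from the Ion Proton were aligned by the authors to mm9, using TopHat2 (version 2.0.10 in the submitters' processing notes) and TMAP, and those of low mapping quality were removed. The 2 gene tables hold only comparisons that the authors had fitted with limma-voom and treat. Deposited log2 values are the mean log2 CPM and the log2 fold change, and the deposited score is treat's moderated t. Each deposited p-value is treat's. The authors' site table holds DiffBind log2 concentrations with p-values.

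The p-values were adjusted again (Benjamini-Hochberg, all 11364 genes, threshold 0.05). The treat minimum of 1 on the log2 scale was read from t, which is 0 below it, while the text of the study states a larger log fold change. Degrees of freedom (15.6) and standard errors were solved from t and p. No error could be solved for 4 genes in K1-ER and 7 in K1-E339K-ER, none of them members. The procedure was tested on simulated data. Positions came from GENCODE M1 (mm9), in which all 50 members were found. Positions of upstream sequences are those of GRCm38.p6 and were kept apart. Members and lists were chosen with earlier results of these data known. Every member was named, with errors for the lowest and highest of each type. A set of alternatives was run on each count and median. Replicates could not be left out, since the tables hold no value per library. The p-values of genes rest on the authors' replicates, while those of sites rest on 1 KLF1-E339K-ER ChIP library. Python 3.11.15, numpy 2.4.6, scipy 1.17.1 and pandas 2.3.3 were used.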

Additional observations from a re-analysis of the deposited data

How the results depend on the processing

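The number of members called lower in K1-ER against K1 was 19, and it moved with the test. It was 40 without a minimum in treat, 8 with a minimum of 1.5, 11 at an adjusted p under 0.01 and 4 with Holm's adjustment. It was 6 among members with under 50% of their 50-base windows shared, an alternative chosen after seeing the data, which leaves 12 members. In K1-E339K-ER against K1 the count was 0, and 1 without a minimum, where 10 had an unadjusted p under 0.05. Over all genes there, 1.42% were called lower without a minimum and 6.94% had a 95% interval wholly below 0. The number of members with a site within 10 kb was 0, and 17 within 50 kb. The medians moved by less than the median standard error of the members in the alternatives that counted identical rows once, kept short or well expressed members, left out Hist3h2bb-ps (the member with a pseudogene symbol), or kept members with little shared sequence: K1-ER from -2.34 to -2.16, K1-E339K-ER from -0.24 to -0.20. No replicate could be left out. No paired analysis was possible because the tables hold no value per library. Depth was not given, so no smallest detectable change follows from it.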
